A study of Rattus norvegicus with 8 samples.

Results

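Fgf8 and other genes of the fibroblast growth factor (FGF) family were examined in rat thymocytes that had been cultured with or without dexamethasone. The 10 genes are the ligands Fgf8, Fgf1, Fgf2, Fgf7, Fgf10, Fgf13 and Fgf17 and the receptors Fgfr1, Fgfr2 and Fgfr3, chosen by name out of 35561 gene names on the array. They are read by 15 of 41012 probes, of which 8 belong to Fgf2, Fgfr1 and Fgfr2. Because the list was drawn up with the Dex against Control values of these arrays in view, the values of its genes are given as a description. Counts of its probes past a test threshold are given below, but nothing is read from them.

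Thymocytes are the developing T cells of the thymus, and dexamethasone is a synthetic glucocorticoid, a class of hormone that kills these cells by apoptosis. The study concerned miRNAs that respond to glucocorticoid, and the arrays served to follow gene expression, including predicted miRNA targets, after 6 hours of 100 nM dexamethasone in culture. Cells came from male adrenalectomized Sprague-Dawley rats, which lack the adrenal source of glucocorticoid, and this holds for both groups. Thymi of 3 rats were pooled for each preparation, dispersed through a mesh, and kept in RPMI medium with serum. The Control group (4 arrays) received no hormone and the Dex group (4 arrays) received dexamethasone. The labels number the arrays 1 to 4 in each group, whereas the study states 3 biological replicates. Which arrays came from separate preparations is not given in the sources used here, so the p-values below measure only the spread between these arrays. Total RNA was labeled with Cy3 and hybridized to 1-color Agilent arrays of 60-base probes.

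FGF ligands are secreted proteins that bind receptor tyrosine kinases together with heparan sulfate chains on the cell surface. The activated receptor signals through the adaptor FRS2 and through GRB2 to RAS and the MAP kinases, and ETS factors such as Etv4 and Etv5 and inhibitors of the Sprouty and Dusp families are typical targets of that signal. In the thymus, Fgf7 and Fgf10 are made by mesenchymal cells and act on epithelial cells through a splice form of Fgfr2.

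The probes of 2 ligands are shown because they carry a contrast described here. Fgf8 was the member with the largest difference, and Fgf17 belongs to the same ligand subfamily but showed no such difference. No base stands out from the others, so none is in capitals.
Fgf8: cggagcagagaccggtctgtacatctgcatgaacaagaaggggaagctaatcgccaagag
Fgf17: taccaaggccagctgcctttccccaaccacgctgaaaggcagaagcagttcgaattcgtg
Each sequence is 60 bases long and is read 5′ to 3′. The array file places the Fgf8 probe at chr1:251211881-251212838 on the minus strand of build rn3. Its 60 bases spread over 958 bases of genome, so the probe crosses a splice junction and reads spliced RNA. The Fgf17 probe lies at chr15:51054366-51054425, within 1 uninterrupted stretch of 60 bases. The G and C content was 53.3% for the Fgf8 probe and 55% for the Fgf17 probe.

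Values below are log2 signals after quantile normalization between arrays. A probe counts as well above background on an array when the scanner software marks it so, and it has only a bound in a group where no array does. The number of such probes was lowest on Dex 2 (24911) and Dex 1 (26474) and highest on Control 2 (34476), and no probe was saturated. Control 1 and Dex 3 shared a slide and were scanned on another day and scanner than the other 6 arrays, of which Control 2 to 4 shared a second slide and Dex 1, 2 and 4 the third. Each of 11 thymocyte marker genes on the array, among them Cd8a, Cd3d and Rag1, was well above background on all 8 arrays.

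Fgf8, a secreted ligand known mainly from embryonic development, was far higher with dexamethasone. Its log2 signals were 2.07, 3.73, 3.22 and 3.13 on Control 1 to 4 and 7.95, 8.48, 7.28 and 6.06 on Dex 1 to 4. The lowest Dex array was above the highest Control array, so the groups did not overlap. Before normalization, the background-subtracted intensities were 2.80, 19.3, 11.4 and 11.2 in Control and 277, 400.0, 135 and 69.4 in Dex. The group means were 3.04 ± 0.70 (SD, n = 4) and 7.44 ± 1.05 (SD, n = 4) on the log2 scale, a difference of 4.41 (SE 0.55) or 21.2-fold. The probe was well above background on all 4 Dex arrays and on 3 of 4 Control arrays, with Control 1 the exception. Only 2 of 41012 probes had a larger positive difference and 3 had a larger difference in either direction.

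The Fgf8 difference was positive in every array set and background setting tried, and its size depended most on the handling of background. It was 4.14 among the 6 arrays of the second scan day, where Control and Dex lay on different slides. On the slide that Dex 3 and Control 1 shared, the Control value was not well above background, and Dex 3 was higher by at least 3.62 log2 units than the lowest signal on Control 1 that was. Dex 1 and Dex 2, the arrays with the fewest probes above background, were also the arrays with the highest Fgf8 signal, and the difference without them was 3.63. Leaving out 1 array at a time gave 4.06 to 4.87. A background correction that adds an offset of 50 to every intensity gave 1.53, and that offset exceeds all 4 Control intensities.

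**Figure D1:**
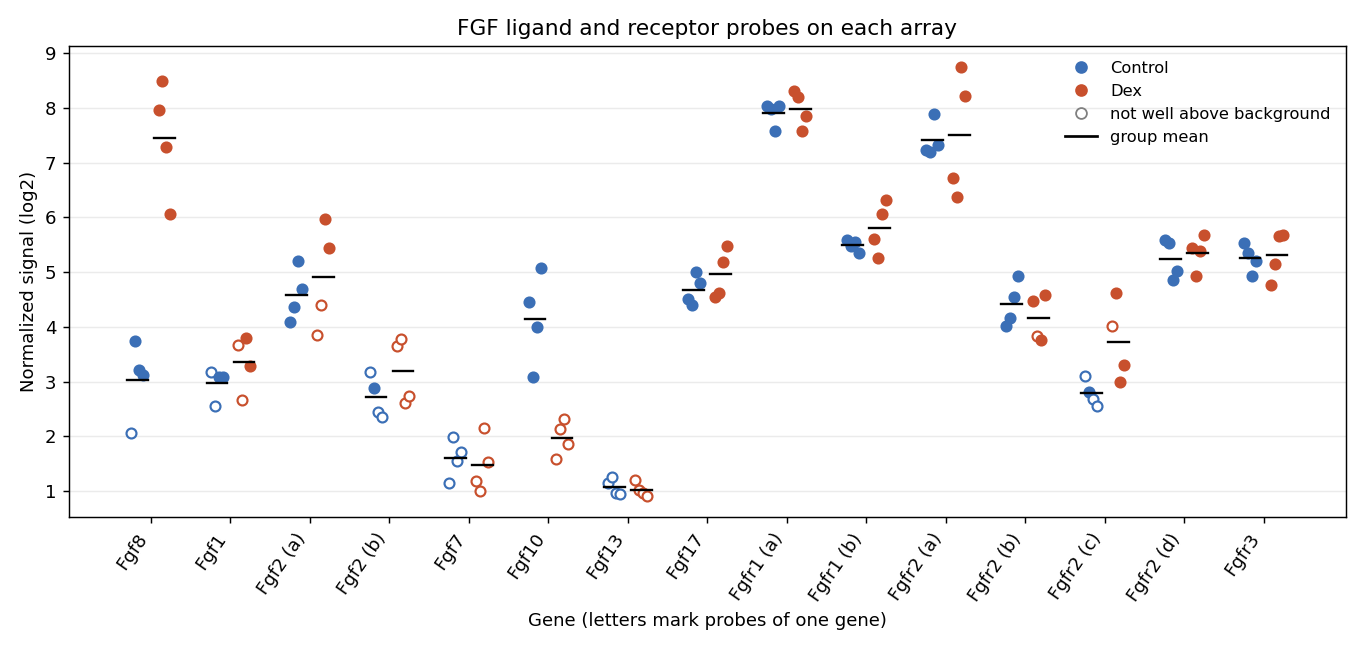
Normalized log2 signal of the 15 FGF probes on each array, 4 Control (blue) and 4 Dex (orange), with a bar at the group mean and open circles for arrays on which the probe was not well above background. Fgf8 sits between 2.07 and 3.73 in Control and between 6.06 and 8.48 in Dex, Fgf10 is well above background on the Control arrays alone, and the groups of the other probes overlap.

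Fgf17, the subfamily relative of Fgf8 on the list, showed no comparable difference. Its log2 signals were 4.50, 4.39, 5.00 and 4.81 in Control and 4.54, 4.62, 5.18 and 5.48 in Dex. The groups overlapped and the difference was 0.28 (SE 0.26), with the probe well above background on all 8 arrays. Fgf18, the other subfamily relative, was not on the list of members and its probe read 5.79, 6.17, 6.93 and 6.78 in Control and 4.48, 4.25, 7.28 and 7.34 in Dex. The 4 Dex values of Fgf18 lay on either side of all Control values, and it did not pass the test (difference -0.58, limma adjusted p = 0.850).

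Fgf10 went the other way. This ligand of thymic mesenchyme gave 4.45, 3.08, 3.99 and 5.07 in Control and 1.59, 2.13, 2.31 and 1.86 in Dex. It was well above background on all 4 Control arrays and on no Dex array, so the Dex values have only an upper bound. Measured against the lowest signal that counted as well above background on each Dex array, Fgf10 was at least 1.74-fold higher in Control. The measured means were 4.15 ± 0.84 and 1.97 ± 0.31 (SD, n = 4 each), a difference of -2.18 (SE 0.40). Intensities were low throughout, 13.9 to 38.6 in Control and 2.48 to 7.23 in Dex, and with the offset of 50 the difference shrank to -0.37.

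Fgf7, the second mesenchymal ligand, was not well above background on any array. Its log2 signals ran from 1.15 to 2.00 in Control and from 1.01 to 2.16 in Dex, so no direction can be given. Of 9 mesenchymal marker genes on the array, 3 were well above background on all 8 arrays, while Dcn, Lum and Pdgfra were so on none, and 0 passed the test at an adjusted p of 0.05, with 1 at an unadjusted p under 0.05. That gene was Pdgfrb, at 2.88 ± 0.57 in Control and 4.59 ± 0.76 in Dex (SD, n = 4 each), with no overlap, a difference of 1.72 and a limma adjusted p of 0.160. Its probe was well above background on 2 Control and 3 Dex arrays. The summed signal of the 9 genes ran from 812 to 1247 in Control and from 610.1 to 1683 in Dex, ranges that overlap. Their median difference was 0.61, which is the value of Pdgfra, a gene well above background on no array. The 3 genes well above background on all 8 arrays went both ways, with Col1a1 at 0.57, Twist1 at 0.38 and Col1a2 at -0.76. The bulk RNA of such a culture cannot tell fewer cells of a type from less RNA per cell, and the part of mesenchymal cells in the Fgf10 difference was not tested.

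Fgf2, a growth factor for many cell types, was read by a pair of probes, of which only probe (a) was above background on most arrays. Probe (a) gave 4.08, 4.36, 5.19 and 4.69 in Control and 3.86, 4.40, 5.98 and 5.43 in Dex, a difference of 0.33 (SE 0.48). It was 1.89 between the arrays of the first scan day and -0.19 on the second. Probe (b), printed 10 times on the array, gave 3.18, 2.88, 2.44 and 2.35 in Control and 3.66, 3.77, 2.61 and 2.73 in Dex. It was well above background on 1 Control array and no Dex array, so neither a bound nor a direction is given for it.

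Fgf1, a ligand that binds all FGF receptors, was near background as well. Its log2 signals were 3.18, 2.55, 3.09 and 3.08 in Control and 3.66, 2.66, 3.80 and 3.29 in Dex. The groups overlapped, the difference was 0.38 (SE 0.28), and 2 arrays of each group were well above background. Fgf13, an FGF relative that stays inside the cell and binds sodium channels, was not well above background on any array, with log2 signals of 0.95 to 1.26 in Control and 0.91 to 1.21 in Dex.

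The receptors were measured more firmly than most ligands, and none separated the groups. Fgfr1 probe (a) was well above background on all 8 arrays with log2 signals of 8.03, 7.98, 7.57 and 8.03 in Control and 8.31, 8.19, 7.57 and 7.86 in Dex, a difference of 0.08 (SE 0.21). Probe (b) of Fgfr1 gave 5.36 to 5.59 in Control and 5.26 to 6.32 in Dex, a difference of 0.32 (SE 0.24). Fgfr3 gave 4.93 to 5.54 in Control and 4.76 to 5.67 in Dex, a difference of 0.05 (SE 0.25). Each of these differences was smaller than the SD of the Dex arrays, which was 0.34, 0.47 and 0.44.

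Fgfr2, the receptor for Fgf7 and Fgf10 in epithelium, was read by 4 probes that disagreed in direction. Probe (a) gave 7.24, 7.19, 7.88 and 7.32 in Control and 6.72, 6.37, 8.74 and 8.21 in Dex, so that the Dex arrays lay on both sides of the Control arrays. The difference was 0.10 (SE 0.53), with an SD of 0.32 in Control and 1.14 in Dex. It was 1.50 between the pair of arrays of the first scan day and -0.36 on the second. Probe (c) gave 3.11, 2.81, 2.68 and 2.55 in Control and 4.02, 4.61, 2.99 and 3.30 in Dex, a difference of 0.95 (SE 0.35), and was well above background on only 1 Control and 3 Dex arrays. That difference was -0.11 on the first scan day and 1.30 on the second, 0.36 without Dex 1 and 2, and 0.15 with the offset of 50. Probes (b) and (d) differed by -0.25 (SE 0.28) and 0.11 (SE 0.24). The probes lie in different stretches of the gene, between chr1:189632954-189633013 for probe (b) and chr1:189670113-189670172 for probe (c) on the minus strand of rn3. Whether they read different splice forms was not tested. Thymic epithelial markers gave no call, with 0 of 9 genes passing the test (0 at an unadjusted p under 0.05), a median difference of 0.33 and summed signals of 2964 to 4946 in Control and 3736 to 5683 in Dex.

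**Figure D2:**
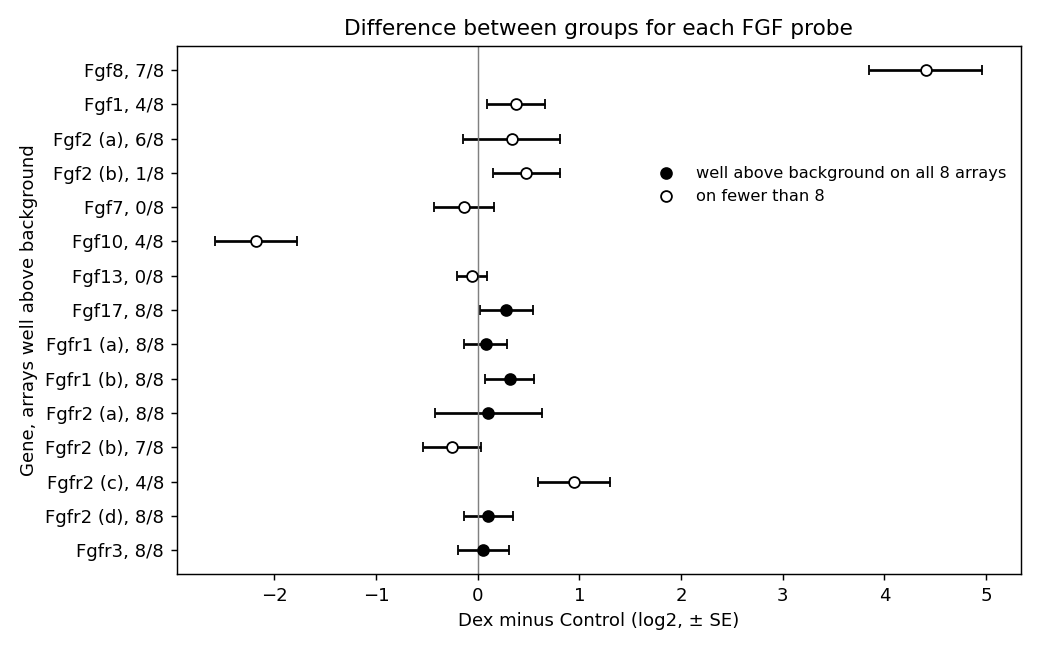
Dex minus Control difference of each FGF probe on the log2 scale with its standard error from the limma fit, with the number of arrays out of 8 on which the probe was well above background. Fgf8 lies at 4.41 and Fgf10 at -2.18, all other probes lie between -0.25 and 0.95, and filled circles mark the 6 probes well above background on all 8 arrays.

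The median difference over the 15 probes was 0.11 against 0.00 over all probes, and it includes Fgf7, Fgf10, Fgf13 and Fgf2 probe (b), which had no level above background in Dex. A limma adjusted p under 0.05 was reached by 1 of the 15 (Fgf8) and by 0.778% of all probes (0.563% higher, 0.215% lower), while blocking on the replicate number left 0 of the 15 and 0.198% of all probes. The measured values of the groups did not overlap for 2 of the 15, with Fgf8 above (4.6% of all probes) and Fgf10 below (4.51%), against 9.11% of all probes in either direction. For Fgf10 the Dex values are upper bounds only, and the lowest signal that counted as well above background was 4.05 on Dex 1 and 4.44 on Dex 2, above Control 2 and 3, so a separation is not established. A difference of over 1 log2 unit was measured for 2, Fgf8 and Fgf10, and for 4.2% of all probes, although the bound for Fgf10 is only 0.80 log2 units. A fit with slide as a fixed block rests on Control 1 and Dex 3, the only slide with both groups, so no count is given. Without Control 3 (0.285% of all probes), Control 4 (0.234%) or Dex 1 (0.327%), the number of members reaching that adjusted p was 0. It was also 0 among the arrays of the second scan day (0.137%), where Control and Dex lay on different slides. It was 2 without Control 2 (0.276% of all probes) and 4 without Dex 1 and 2 (17.4%). With dim probes left out it was 2 (1.97% of those left), where a probe stayed if well above background on all 4 arrays of either group. With slide as a random block it was 2 (4.48%), and the estimated correlation between arrays of a slide was negative (-0.235). The signal to noise statistic, with its own threshold on an unadjusted p and a fold, called 2 members and 6.79% of all probes. These counts rest on the values by which the list was drawn up and nothing is read from them.

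The Dex group itself was divided. Of the 7 FGF probes well above background on all 4 Dex arrays, Dex 3 and Dex 4 were both above Dex 1 and Dex 2 for 4, those of Fgf17, Fgfr3, Fgfr1 (b) and Fgfr2 (a). They were both below for 2, those of Fgf8 and Fgfr1 (a). Over all 24166 such probes the shares were 24.4% above and 59% below. Dex 1 and Dex 2 also had the fewest probes above background, and the part of that in the values of single genes was not tested.

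The rest of the FGF pathway was read from 5 lists of ligands, receptors and coreceptors, adaptors and kinases, targets and inhibitors, and heparan sulfate enzymes. Of 82 genes on the array, 1 rose (Hs3st1) and 1 fell (Hpse), which is 2.44% of them. By probe it is 2 of 106, or 1.89%, against 0.778% of all probes. With dim probes left out, 1.97% of the remaining probes passed, but the 106 pathway probes include dim ones, so these shares cannot be compared. Their median difference was -0.01, against 0.00 over all probes. Without adjustment 12 genes had a p under 0.05, and with the replicate block 0 passed. The share of all probes at that unadjusted p was not worked out, so nothing is read from counts at an unadjusted p.

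Both genes that passed act on heparan sulfate, the sugar chain that holds FGF ligands to their receptors. Hs3st1 encodes a sulfotransferase that adds sulfate to the chain. Its log2 signals were 6.39, 6.01, 6.21 and 6.11 in Control and 8.08, 7.93, 7.56 and 7.33 in Dex, so every Dex array was higher. The difference was 1.55 (SE 0.21), or 2.92-fold, with a limma adjusted p of 0.0173, and of 0.0911 with the replicate block. Hpse encodes heparanase, which cuts the chain. Its signals were 11.88, 12.05, 11.65 and 11.81 in Control and 10.95, 10.71, 10.41 and 10.54 in Dex, lower on every Dex array. It fell by 1.19 on the log2 scale (SE 0.18, limma adjusted p = 0.0274), with an adjusted p of 0.104 under the replicate block. Leaving out 1 array changed the calls more than the differences, which stayed at 1.43 to 1.68 for Hs3st1 and at -1.29 to -1.11 for Hpse. Hs3st1 missed the threshold without Control 1, 2, 3 or 4 or without Dex 1 or 2 (adjusted p 0.0525 to 0.0891), and Hpse without any Control array or without Dex 2, 3 or 4 (0.0613 to 0.122). Among the 6 arrays of the second scan day alone the limma adjusted p was 0.109 for Hs3st1 and 0.164 for Hpse. With scan day as a block it was 0.0462 for Hs3st1 and 0.0589 for Hpse, and with 75th percentile scaling 0.0234 and 0.248. The other 15 heparan sulfate genes did not pass, among them the polymerase gene Ext2 (-0.11) and the endosulfatase gene Sulf2 (0.08). Sulf1 and Ndst3 were not well above background on any array.

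The other ligands gave no calls, with 0 of 15 genes passing, 2 at an unadjusted p under 0.05, and a median difference of 0.08. Only Fgf21 and Fgf22 were well above background on all 8 arrays, while Fgf5, Fgf16 and Fgf20 were so on none. Fgf22 gave 5.20 to 5.30 in Control and 5.62 to 6.15 in Dex, with no overlap, a difference of 0.59 and a limma adjusted p of 0.215. Fgf9 gave 2.48 to 2.95 in Control and 1.87 to 2.25 in Dex and did not pass (limma adjusted p = 0.242). It was well above background on 2 Control arrays and no Dex array, and no bound on its fold could be given.

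Among receptors and coreceptors 0 of 16 genes passed, 2 had an unadjusted p under 0.05, and the median difference was -0.28. Fgfbp1, a secreted carrier of FGF ligands, gave 9.23, 8.80, 8.73 and 8.25 in Control and 7.99, 8.04, 7.12 and 6.19 in Dex. All Dex arrays lay below all Control arrays, but the difference of -1.42 (SE 0.43) did not pass (limma adjusted p = 0.264). The receptor Fgfr4 differed by 0.46 and the decoy receptor Fgfrl1 by -0.13, with adjusted p of 0.735 and 0.909.

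The intracellular relay was well measured and showed no call. All 22 adaptor and MAP kinase genes were well above background on all 8 arrays, 0 passed and 1 had an unadjusted p under 0.05. Frs2, the receptor's docking adaptor, differed by 0.62 (limma adjusted p = 0.586) on its brighter probe and by -0.22 (0.843) on the other, and Grb2 and Mapk3 by -0.07 and 0.12.

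Among the feedback inhibitors and target genes 0 of 12 passed. An unadjusted p under 0.05 was reached by 5, with no share of all probes to set beside it. Fos, an early target of MAP kinases, gave 5.52, 5.39, 5.88 and 5.96 in Control and 6.73, 7.51, 6.46 and 7.06 in Dex, with no overlap and a difference of 1.26 (limma adjusted p = 0.0955). Etv5 differed by 0.89 (0.403) and Etv4 by 0.37 (0.744), whereas Egr1, another early target, differed by -0.78 (0.449). The inhibitor Spry1 differed by -0.48 (0.264) on its brighter probe and by 0.05 on the other. Spry2, Spry4 and Dusp6, inhibitors that respond to FGF signals in many tissues, differed by 0.08, 0.01 and -0.03. For Dusp6 the Dex arrays again split, at 7.58 and 7.30 on Dex 1 and 2 and 9.66 and 9.11 on Dex 3 and 4, against 7.89 to 9.25 in Control.

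**Figure D3:**
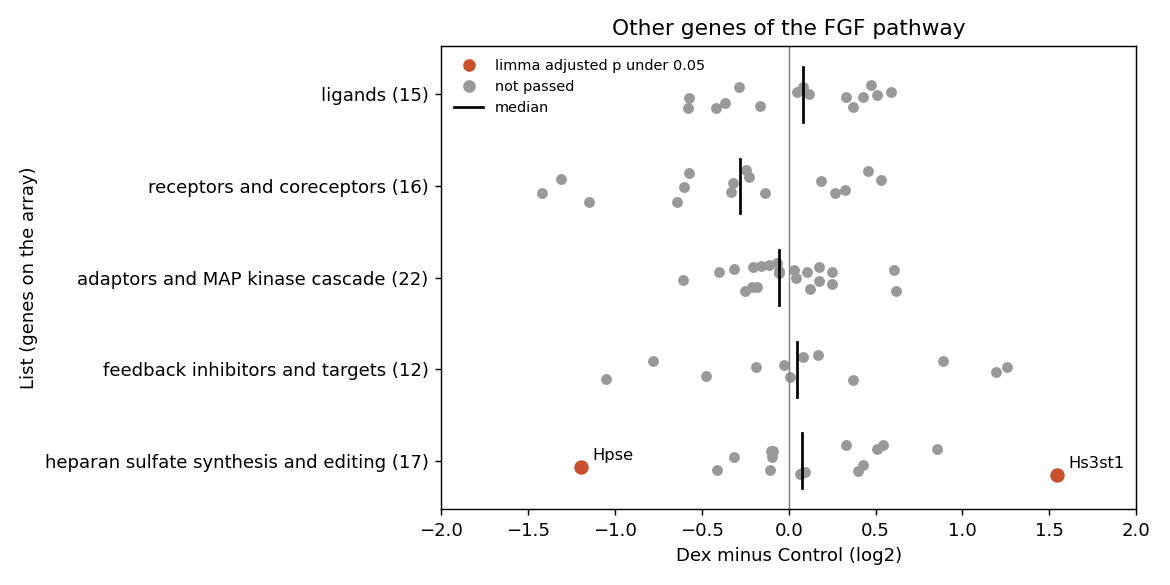
Dex minus Control difference (log2) of each other FGF pathway gene, 1 point a gene by its brightest probe, in 5 lists with the number of genes on the array in brackets and a bar at the median. Only Hs3st1 at 1.55 and Hpse at -1.19 passed a limma adjusted p of 0.05, and the medians lie between -0.28 and 0.08.

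The neighborhood of Fgf8 on chromosome 1 did not share its difference. Within 500 kb on either side of the Fgf8 probe on rn3 lay 30 other probes, of which 0 passed the limma test at an adjusted p of 0.05 (4 had an unadjusted p under 0.05), against 0.778% of all probes. Their differences ran from -0.53 to 0.81 with a median of 0.16, and 20 of the 30 were positive. Most were well measured, 24 of them on all 8 arrays, and the groups did not overlap for 5, against 9.11% of all probes. The probe with the smallest adjusted p was AI113073, an expressed sequence tag 83.0 kb away, with 4.79 to 4.98 in Control and 5.41 to 6.00 in Dex, a difference of 0.81 and an adjusted p of 0.109. Mgea5 (now Oga), which removes a sugar from nuclear and cytoplasmic proteins and lies 14.7 kb from Fgf8, differed by -0.42, and Fbxw4, a gene of protein turnover, differed by 0.42. The potassium channel partner Kcnip2 differed by 0.24 and the transcription cofactor Ldb1 by 0.32.

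**Figure D4:**
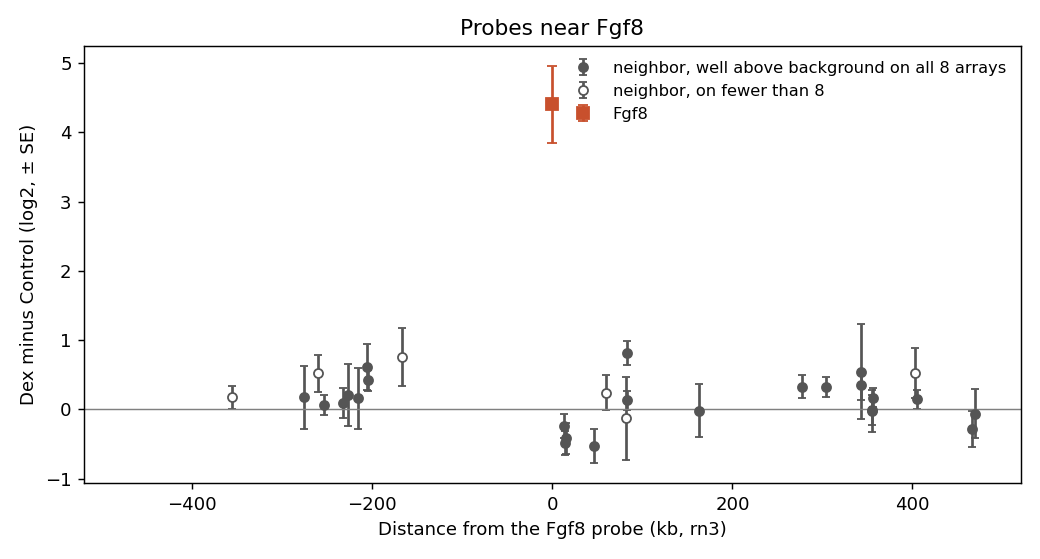
Dex minus Control difference (log2, with standard error) of Fgf8 (orange square) and of 30 probes within 500 kb of it, by distance from the Fgf8 probe in kb on rn3, with open circles for probes not well above background on all 8 arrays. Fgf8 lies at 4.41, and all neighbors lie between -0.53 and 0.81.

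Promoter sequence was examined for the binding motif of the glucocorticoid receptor. RefSeq promoters of build GRCr8, 250 bases before to 50 bases after the start, were found for 8 of the 10 genes, all but Fgf17 and Fgfr1. The palindrome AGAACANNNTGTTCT was in 0 of the 8 and in 0.0149% of 33469 promoters. Its arm, AGAACA or on the other strand TGTTCT, which overlaps the palindrome, was in 1 of the 8 (Fgf2) and in 20.7% of all promoters. Neither Fgf8 and Fgf10 nor Hs3st1 and Hpse held either form in this window.

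Fgf8 was compared with 6690 genes that had a probe well above background on all 4 Dex arrays. No such condition was set for Control, so genes near background in Dex were left out and genes high only in Dex could enter. The genes most like Fgf8 over the 8 arrays were found by Pearson correlation of log2 signals. They were Kif5c, a kinesin motor (r = 0.985), Limk2, a kinase of the actin skeleton (0.985), the proton pump subunit Atp6v0d1 (0.982), Prkcsh, a glucosidase subunit (0.979), and Pik3r1, a regulatory subunit of PI3 kinase (0.978). The 8 points fall into 2 groups that Fgf8 separates, so a high r mainly restates a difference between Dex and Control. Kif5c gave 3.66 to 4.32 in Control and 7.04 to 7.87 in Dex, a difference of 3.44. Like Fgf8, each of these genes was higher on Dex 1 and 2 than on Dex 3 and 4. The same held for 59% of all probes well above background on all 4 Dex arrays. The difference was 1.14 for Limk2, 1.17 for Pik3r1, 0.44 for Atp6v0d1 and 0.48 for Prkcsh.

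Marker genes of the cell types a thymus preparation can hold were tested as well. Of 57 marker genes of thymocytes, thymic epithelium, mesenchyme, endothelium, macrophages, B cells, erythroid cells, adipocytes and parathyroid, 1 passed, against 0.778% of all probes. It was Pecam1, an adhesion molecule of endothelium and leukocytes, at 5.30 ± 0.11 in Control and 6.65 ± 0.30 in Dex (SD, n = 4 each), with a difference of 1.36 and a limma adjusted p of 0.0208 (0.108 with the replicate block). The call was lost without Control 1, 2, 3 or 4 or Dex 1 or 4 (limma adjusted p 0.0667 to 0.0971), and with 75th percentile scaling (0.0629). It was also lost among the arrays of the second scan day (0.0972), but not with scan day as a block (0.0299). The 5 endothelial genes had a median difference of 0.53, whereas their summed signal ran lower in Dex, 1214 to 1670 against 1825 to 2402. Cdh5 differed by 0.53, Kdr by -0.68, and Vwf by -0.53 on its brighter probe and 0.57 on the other, none of which passed, and Tek was not well above background on any array. The part of endothelial cells in the FGF values was not tested. Of 9 macrophage markers 0 passed and 3 had an unadjusted p under 0.05. The groups did not overlap for 2, Mrc1 and the complement gene C1qg, both higher in Dex. Over all probes the share was 4.6% for higher and 9.11% for either direction. Mrc1, a mannose receptor, differed by 2.12 (limma adjusted p = 0.0870) and C1qg by 0.97 (0.327). C1qb (0.84), C1qa (0.72), Lyz (0.21) and Csf1r (0.12) were also higher, while Cd68 (-0.12), Emr1 (-0.15) and Cd163 (-0.24) were lower. The list had a median difference of 0.21 and summed signals of 4399 to 6122 in Control and 4329 to 8764 in Dex. The part of macrophages in the FGF values was not tested.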

How the data were processed

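Expression was measured on 8 one-color arrays, 4 Control and 4 Dex. Per the file headers, the authors used Feature Extraction 9.5.3.1 to obtain an intensity per spot, and the deposited intensity is background-subtracted and not normalized between arrays. The authors' deposited flags of the software mark spots well above background as 1 and others as 0. A deposited table of log2 values was an alternative. Outlier spots were left out among 43379 non-control spots (16 missing values), and intensities were converted to log2, quantile normalized, and reduced to 1 value per probe by median polish. These values correlated with the deposited log2 table at 0.999999 or more.

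All 41012 probes were fitted with limma (version 3.58.1, R version 4.3.3), without a block, with Benjamini-Hochberg adjustment at 0.05. The signal to noise statistic named in the methods was called at a p of 0.01, the null values of all probes under the 70 possible assignments being pooled, and a fold of 1.2. Gene names are those of the array, and the brightest probe stands for a gene in a list. Tested on simulated data with 40996 probes, limma recovered 56 of 100 probes changed by 2 log2 units and 90 of 100 changed by 4, with 7 false calls. The simulated noise was independent between arrays, without effects of slide, scan day or the division of the Dex group. The false calls therefore do not measure error from such effects. The number of arrays limits the precision.

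Deviations from the group means correlated between arrays of the same replicate number at 0.397, 0.129, 0.550 and 0.184. Since each is over 0.1, results of a blocked fit stand beside the unblocked ones where a call differs. Some pairs with unmatched numbers were as close: 0.401 for Control 1 and Dex 2, 0.391 for Control 3 and Dex 4, and 0.188 for Control 2 and Dex 1.

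The genes, lists and tests were chosen with earlier results of these data known. Named genes outside the FGF list are those that passed, the 5 most like Fgf8, neighbors of Fgf8, and examples of the pathway lists and of some marker lists. No gene of the B cell, erythroid, adipocyte or parathyroid lists is named. Some items are not reported here. The fits by scan day and without Dex 1 and 2 were chosen after seeing the data. Alternatives were another scaling (75th percentile), a normexp background correction, the deposited table, replicate and slide blocks, dim probes left out, and each array left out.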

Additional observations from a re-analysis of the deposited data

Results flagged for a closer look

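In 2 of 34 groups of 4 arrays, 1 array stood apart from the others by Dixon's test of the gap to the nearest array over the range, which chance alone would give in about 1 group in 20. For Fgf1 the array was Control 2, at 2.55 against 3.08 to 3.18 on the other Control arrays (ratio 0.83). For Fgfr1 probe (a) it was Control 3, at 7.57 against 7.98 to 8.03 (ratio 0.873).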

How the results depend on the processing

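The Fgf8 difference of 4.41 stayed within its replicate spread in all alternatives except the normexp correction (1.53), with 4.06 to 4.87 when an array was left out. Of the pathway genes, 2 passed, against 1 with 75th percentile scaling, 0 with the replicate block, 0 with slide as a fixed block, 6 with slide as a random block, 0 to 1 with an array left out, 1 with scan day as a block, 0 within the second scan day, 9 without Dex 1 and 2 (where 17.4% of all probes passed), and 7 by the signal to noise statistic. Of the marker genes 1 passed, against 0 with 75th percentile scaling, 2 with normexp, 0 with the replicate block, 0 with slide fixed, 5 with slide random, 0 to 1 with an array left out, 0 within the second scan day, 9 without Dex 1 and 2, and 6 by signal to noise. Near Fgf8, 0 passed, also with any array left out, against 1 with slide random, 6 without Dex 1 and 2 and 4 by signal to noise. The cause was not tested. With slide as a fixed block the contrast rests on Control 1 and Dex 3, the only slide with both groups, so its counts carry no weight. Among the arrays of the second scan day, slide and group coincide. Over all probes 319 passed, against 166 with 75th percentile scaling, 912 with normexp, 81 with the replicate block, 1 with slide fixed, 1838 with slide random, 562 with dim probes left out, 96 to 249 with an array left out, 190 with scan day as a block, 56 within the second scan day, 7143 without Dex 1 and 2, and 2784 by signal to noise. Most ligands lie near background, where fold changes are least certain.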
